A study of Mus musculus with 2 samples.

Results

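Ependymal cells, the multiciliated cells that line the brain ventricles, were taken from single-cell RNA-seq of mouse brain grafted with KR158 glioblastoma cells. A barcode was kept with at least 1000 unique molecular identifiers (UMIs, 1 per tagged RNA molecule), at least 500 genes and at most 10% mitochondrial UMIs. It was called ependymal when at least 4 of the 7 markers Ccdc153, Tmem212, Foxj1, Rarres2, Dynlrb2, Sntn and Fam183b had a UMI. At most 1 of P2ry12, Mog, Cldn5 and Dcx (microglia, oligodendrocytes, endothelium and neuroblasts) and at most 2 of the choroid plexus markers Folr1, Kl, Kcnj13, Prlr and Kcne2 could also have one. These limits gave 372 ependymal cells of 13466 kept cells in all.

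The study set a control host, Cx3cr1 CreER/+ Plxnb2 fl/+, beside a conditional knockout (cKO) host, Cx3cr1 CreER/+ Plxnb2fl/fl, with 1 library of each. Both hosts were of C57BL/6 background, carried the Cx3cr1 CreER allele and were given tamoxifen intraperitoneally at 100 mg per kg on alternate days, from 3 days before the graft until 8 weeks after it. The control is therefore heterozygous for the floxed allele, although its label reads WT, and only the control's title names the KR158 graft, while both cell line labels give it. Cx3cr1 drives Cre in microglia and related myeloid cells, so ependymal cells were not the class that the allele targets. The tissue near the graft was digested with papain, and its cells went through Percoll and red cell lysis before 10x 3′ capture. The age of the animals is not given in the labels used here.

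Ependymal cells carry tufts of motile cilia whose beat moves cerebrospinal fluid along the ventricle wall. Each cilium has an axoneme of microtubule doublets and a central pair, bent by axonemal dynein arms under the control of radial spokes. FOXJ1 and the RFX factors switch on the genes for these parts, and RFX proteins bind an X-box element that contains GTTGCC. Plexin-B2 is a receptor for class 4 semaphorins. Interferons act through cell surface receptors and transcription factors such as IRF9, and many genes they induce carry an interferon-stimulated response element with a GAAANNGAAA core.

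Promoter windows of genes that the results below turn on are shown for orientation, from RefSeq (GRCm38.p6, the same assembly as mm10), each 5′ to 3′ on the gene's own strand and upstream of the listed start. In the first 4, capitals mark GAAANNGAAA or its reverse complement, merged where matches overlap. In the last 2, capitals mark GTTGCC. Only genes with such a match upstream of the start were chosen for printing, so the matches in these windows are no result.
Cxcl10, chr5:92349053-92349139, minus strand: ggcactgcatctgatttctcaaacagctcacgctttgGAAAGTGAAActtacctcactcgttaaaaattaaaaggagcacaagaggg
Ifit1, chr19:34640764-34640853, plus strand: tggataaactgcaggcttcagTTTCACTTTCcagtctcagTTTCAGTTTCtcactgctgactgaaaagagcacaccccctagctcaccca
Isg15, chr4:156200835-156200924, minus strand: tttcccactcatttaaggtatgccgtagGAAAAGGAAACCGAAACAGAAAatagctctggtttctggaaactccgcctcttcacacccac
Ifit3, chr19:34583367-34583456, plus strand: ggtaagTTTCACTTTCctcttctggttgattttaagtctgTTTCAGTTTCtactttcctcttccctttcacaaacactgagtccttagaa
Ccdc153, chr9:44240485-44240570, plus strand: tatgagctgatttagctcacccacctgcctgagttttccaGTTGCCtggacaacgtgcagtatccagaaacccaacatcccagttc
Sntn, chr14:13670770-13670855, plus strand: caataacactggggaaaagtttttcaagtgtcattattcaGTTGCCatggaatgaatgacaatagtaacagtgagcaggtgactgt

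Of 8068 kept control cells, 258 were ependymal, a share of 3.20% (exact Clopper-Pearson 95% interval 2.82 to 3.61). Of 5398 kept cKO cells, 114 were ependymal, a share of 2.11% (1.75 to 2.53). All intervals here cover counting error only, and with 1 library per genotype no difference between the hosts has a replicate check, so no p-value is given. The deposited control matrix had been filtered before deposit (each of its 10942 barcodes holds at least 500 UMIs), whereas the cKO matrix had not (1513730 barcodes with a UMI). No barcode occurred in the ependymal cells of both libraries, and 8 occurred in the kept cells of both. Scrublet called 9.30% of control and 6.14% of cKO ependymal cells as doublets, and these were kept in the main values.

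The members were deep and uniform in their markers. The median was 15762.5 UMIs and 4856.5 genes in control cells (1130 to 78430 UMIs) and 14667.5 UMIs and 4807.5 genes in cKO cells (1171 to 73900 UMIs). All 7 markers had a UMI in 236 control cells (91.5%) and in 105 cKO cells (92.1%). The marker values chose the cells and are given as a description. Ccdc153, a cilia protein, had 2631 and 2362 CPM (UMIs per 1000000 UMIs of the summed ependymal cells) in control and cKO, and Tmem212 had 2431 and 2189 CPM. Sntn, which encodes the ciliary tip protein sentan, had 489 and 432 CPM. At the threshold, the 4 control cells with 4 markers had 232 CPM of Ccdc153 and 92.7 CPM of Foxj1, against 24.6 and 32.8 CPM in the 14 cells with 3 markers, which were left out. The 3 cKO cells with 4 markers had 207 CPM of Foxj1 against 63.6 CPM in the 8 cells with 3. Ccdc153 ran the other way there, at 29.6 CPM against 53.04 CPM, and Sntn had no UMI in either.

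Markers of other classes were present at levels that differed by class. The rule sets no limit on astrocyte or pericyte markers. Astrocyte markers summed to 2143 and 2462 CPM in control and cKO, and the highest single cells had 22624 and 21325 CPM. Pericyte and smooth muscle markers summed to 535 and 414 CPM. T cell markers summed to 1.63 and 0.391 CPM, border macrophage and monocyte markers to 5.44 and 3.91 CPM, and oligodendrocyte precursor markers to 9.80 and 13.7 CPM in control and cKO. Microglia markers summed to 493 and 361 CPM and endothelial markers to 601 and 836 CPM. Few cells held much of the latter: the 26 control and 11 cKO cells with most endothelial UMIs had 44.9% and 56.9% of them. Of the choroid plexus markers in the rule, Folr1 had a UMI in 199 of 258 control and 96 of 114 cKO cells, at 190 and 189 CPM. Control choroid plexus epithelial cells, taken by 3 of the same 5 markers, had 889 CPM of Folr1 and 240895 CPM of Ttr.

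Plxnb2, the floxed gene on chr15:89155549-89180788 (GENCODE vM21, GRCm38), was at nearly the same level in ependymal cells of both hosts. The level was 252 CPM in the control (Poisson 95% interval 239 to 266) and 247 CPM in the cKO (228 to 267). The log2 ratio of cKO over control was -0.03, with an exact conditional interval of -0.17 to 0.11. In microglia, the class in which the Cre is active, Plxnb2 had 172 and 37.8 CPM, a log2 ratio of -2.19 (-2.38 to -1.99). Plxnb2 was also higher in ependymal cells than in astrocytes, which had 39.2 and 35.6 CPM. Plxnb1, a second B-class plexin, had 68.6 and 67.7 CPM, and Plxna4 had 51.4 and 46.9 CPM. None of the 4 measured genes of the plexin list differed by 1.5-fold. Over all 7200 measured genes 1.82% were higher and 0.944% lower, so a list of 4 could hold none. The class 4 semaphorin ligands were near the limit of measurement: Sema4d had 9.98 and 11.7 CPM, Sema4g 7.80 and 14.1 CPM, and Sema4c 2.72 and 2.35 CPM. Ang, the secreted ribonuclease angiogenin and a further Plexin-B2 ligand, had 62.4 and 48.5 CPM.

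The listed genes of the cilium were nearly even between the hosts. Of 82 measured genes of the axoneme lists (a mean of at least 20 CPM over the 2 libraries; 94 listed, 89 found), 0 were at least 1.5-fold higher with an interval clear of 0, and 0 were lower by that measure. The lists do not hold every axonemal gene, and 2 dynein heavy chain genes outside them, described below, were lower. Over all 7200 measured genes, 131 (1.82%) were higher and 68 (0.944%) lower. The log2 ratio of cKO over control was below 0 for 60 of the 82 genes, with a median of -0.14, against 3440 of 7200 and a median of 0.01 for all genes. The summed level was 27551 CPM in control and 25588 CPM in cKO cells.

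The regulators of ciliogenesis differed little, with 0 of 10 measured higher or lower. A list this short could hold none at the shares over all 7200 measured genes, 1.82% higher and 0.944% lower. Foxj1, the master regulator of motile cilia, had 631 CPM (610 to 652) in the control and 627 CPM (597 to 659) in the cKO. Rfx2 had 61.5 and 67.7 CPM, and Rfx3 had 152 and 116 CPM, a log2 ratio of -0.39 (-0.59 to -0.20). Myb, which acts early in multiciliated differentiation, had 164 and 138 CPM, and Trp73, the p53 relative needed for multiciliogenesis, 59.5 and 63.0 CPM. Deup1, part of the deuterosome that amplifies centrioles, had 30.3 and 32.5 CPM. The early inducers were scarce: Mcidas had 0 and 1 UMI, Gmnc 46 and 26 UMIs, and Foxn4 none in either library. At these totals 3 UMIs, the most that a count of 0 allows, correspond to 0.544 CPM of control and 1.17 CPM of cKO ependymal UMIs.

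Of the 20 measured dynein arm genes 14 lay below equality, and of the 19 assembly and docking genes 15 did, with several heavy chains among the lower ratios. Dnah6, an inner arm heavy chain, had 595 and 422 CPM, a log2 ratio of -0.50 (-0.60 to -0.40). Wdr63, which encodes an inner arm intermediate chain, had 175 and 118 CPM and the lowest ratio of the axoneme lists, -0.57 (-0.76 to -0.38). Dnah5 and Dnah9, outer arm heavy chains, had ratios of -0.33 and -0.28. Outside the lists, Dnah14 had 32.9 and 18.4 CPM, a ratio of -0.84 (-1.33 to -0.37), and Dnah7c 31.0 and 20.0 CPM, a ratio of -0.64 (-1.12 to -0.18). Both heavy chain genes were lower by the measure above. Dnah7c was picked after its values were seen, and its near copies Dnah7a (0.01) and Dnah7b (-0.14) were not lower, so its share of their UMIs is uncertain. Light chain genes were even: Dynlrb2 had 993 and 1014 CPM and Dynll1 1358 and 1426 CPM. Ccdc39, a ruler for the spacing of arms and spokes, had 376 and 306 CPM (-0.30), and Zmynd10, a cytoplasmic arm assembly factor, 170 and 173 CPM (0.03).

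Of the 18 spoke and central pair genes 14 lay below equality, and of the 25 microtubule-associated genes 17. Rsph1, a radial spoke head protein, had 1030 and 1004 CPM (-0.04). Hydin, a central pair protein, had 308 and 248 CPM (-0.31), and Spag6l, another, 252 and 257 CPM (0.03). Tppp3 had 949 and 791 CPM (-0.26), whereas the tektin gene Tekt1 had 263 and 271 CPM (0.04). The 26 measured genes of intraflagellar transport and the BBSome, which carry cargo in and out of cilia, included 0 higher and 0 lower, with a median of -0.05. Over all measured genes the shares were 1.82% and 0.944%, so a list of this size could hold none. The lowest ratio of the 26 was that of Dync2h1, the retrograde motor, at -0.34 (-0.50 to -0.18).

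**Figure D1:**
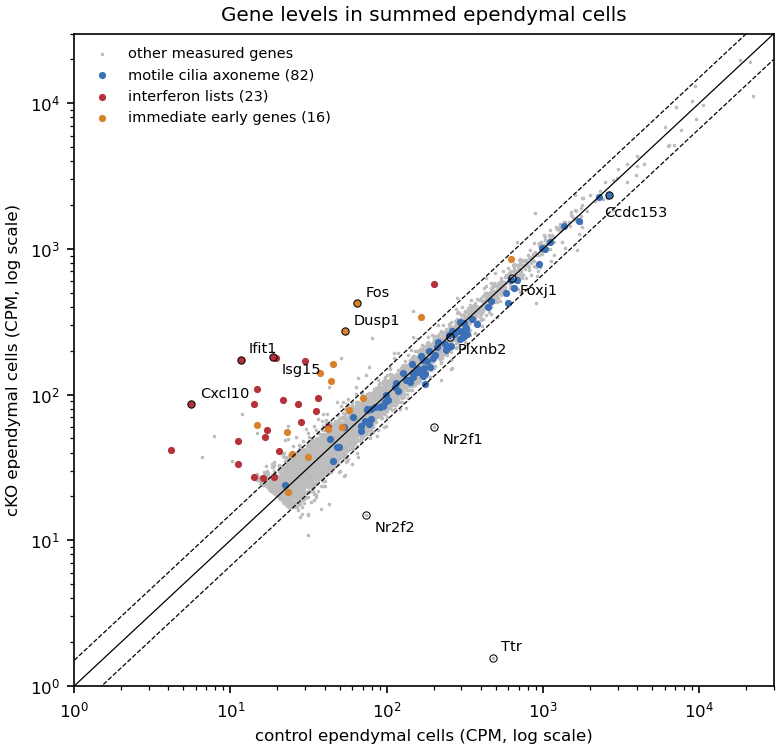
Level of each measured gene in the summed ependymal cells of the control (x axis) and the cKO (y axis), in CPM on log scales; solid line, equality; dashed lines, 1.5-fold. The 82 axoneme genes lie along the solid line from about Efhc2 to Ccdc153, the interferon genes lie above the upper dashed line except Cmpk2 and Eif2ak2, and Ttr, Nr2f1 and Nr2f2 lie below the lower one.

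Against astrocytes, the neighbouring glia of the same libraries, 78 of the 82 axoneme genes were at least 4-fold higher in ependymal cells in both libraries, where 15.2% of all measured genes were. Of the intraflagellar transport and BBSome genes, which also serve primary cilia, 13 of 26 were. The cells were chosen on cilia genes, so these counts are descriptions. Genes outside the rule were ranked by the smaller of the 2 libraries' ratios to all other kept cells. The first was Col6a5, a collagen VI chain, with 223 and 125 CPM against 1.51 and 0.959 CPM elsewhere. Calb1, which encodes the calcium buffer calbindin, had 450 and 466 CPM against 4.79 and 4.32 CPM. Slc14a2, a urea transporter, had 127 and 147 CPM, and Lrp2, the endocytic receptor megalin, 137 and 95.1 CPM. The other leading genes were Tcp11, Dthd1, Ppp1r32, Rgs22, Fam216b, Iqca, Got1l1, Prr29, Dnah12, Lrrc36 and Rnf138rt1.

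In the RefSeq promoter table (250 bases before to 50 after the start), GTTGCC on either strand was present for 33 of 69 axoneme genes with an entry and for 12 of 23 transport genes. It was present for 14.1% of all 27025 genes and 17.5% of the measured ones. The longer X-box GTTNCCNNGGNAAC, which a GTTGCC match can overlap, was present for 1 of 69 axoneme genes and 0.529% of all genes. A match is a run of letters and not a bound site.

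Interferon-stimulated genes were higher in cKO ependymal cells. Of 17 measured genes of the interferon response list (41 listed, 39 found), 15 were higher and 0 lower, with a median log2 ratio of 1.67. That list was already known to differ in these data, so its direction is no independent evidence. All 6 measured genes of the interferon-gamma linked list were higher, with a median of 1.82. Over all 7200 measured genes, 1.82% were higher and 0.944% lower. Summed over all members found, the interferon response list had 632 CPM in control and 2319 CPM in cKO cells.

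Antiviral effector genes had some of the highest ratios. Ifit1, which binds foreign RNA caps, had 64 control and 445 cKO UMIs, or 11.6 CPM (8.95 to 14.8) and 174 CPM (158 to 191). Its log2 ratio was 3.91 (3.52 to 4.31). Isg15, a ubiquitin-like modifier, had 18.7 and 180 CPM (3.27), and Ifit3, 19.6 and 177 CPM (3.18). Ifit3 and Ifit3b are near-identical neighbours, so the split of UMIs between them is uncertain. Rsad2, the antiviral enzyme viperin, had 14.2 and 86.8 CPM (2.62), and Bst2, the membrane tether tetherin, 30.1 and 169 CPM (2.49). Oasl2, of the oligoadenylate synthetase family, had 21.8 and 91.5 CPM (2.07), and Ifi27 had 202 and 574 CPM (1.51).

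Among genes of interferon signalling, Irf9, a transcription factor and a member of the response list, had 16.7 and 50.9 CPM (1.61, interval 1.21 to 2.01). The receptor genes were even: Ifnar1 had 34.3 and 34.4 CPM, Ifnar2 27.0 and 30.9 CPM, and Ifngr1 68.2 and 74.3 CPM. Jak1 had 69.0 and 57.1 CPM. None of the 8 measured genes of the receptor and signalling list was higher or lower, where 1.82% of all measured genes were higher and 0.944% lower. Cmpk2 (0.50) and Eif2ak2 (0.52) were the 2 interferon response genes under 1.5-fold.

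Guanylate-binding and chemokine genes were also higher. Gbp3, an interferon-induced GTPase, had 11.3 and 47.7 CPM (2.08), and Gbp2 35.4 and 76.7 CPM (1.12); the Gbp genes are close relatives and their split is uncertain. Cxcl10, a ligand of CXCR3, a receptor on T cells, had 31 and 221 UMIs, or 5.63 and 86.5 CPM, a log2 ratio of 3.94 (3.40 to 4.53). Only 11 control and 10 cKO cells had a UMI of it, and 1 cKO cell held 172 of the 221 UMIs. Cxcl12, a chemokine also made by vessels, had 23.2 and 60.6 CPM (1.38).

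One cKO cell carried much of this signal. It held 1051 interferon response UMIs among 46602 UMIs, or 17.7% of the list's UMIs in cKO ependymal cells, with 7 of 7 rule markers, 1154 axoneme UMIs and no UMI of Cldn5 or Flt1. The corresponding control cell held 234 of 40827. With both cells left out, 14 of 16 measured interferon response genes were higher with a median of 1.67, and the sums were 594 and 1944 CPM. Ifit1 then had a ratio of 3.47 (3.07 to 3.89) and Isg15 2.74, while Cxcl10, at 49 UMIs, had a ratio of 1.78 (1.11 to 2.48) and a mean under 20 CPM. Gbp2 had 0.72, Rsad2 1.72 and Iigp1, an immunity-related GTPase, 3.08. Of the interferon-gamma linked list 3 genes remained above the level filter, and 3 of 3 were higher.

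The difference was smaller among the few cells with none of the 5 choroid plexus markers. These were 54 control and 17 cKO cells, in which the interferon response median was 0.99. In them Rsad2 had a ratio of -0.24, B2m -0.60, Cxcl12 -4.06 and Junb -0.86, the other direction from all ependymal cells.

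The difference was spread over the cells. Per cell, the interferon response list had a median of 483 CPM in the control (quartiles 307 and 722) and 1460 CPM in the cKO (954 and 2431). Of cKO cells, 68.4% lay above the 90th percentile of the control cells. After thinning each cell to 5000 UMIs (241 control and 109 cKO cells reached that depth; 17 and 5 did not), at least 3 genes of the list had a UMI in 35.3% of control cells (29.2 to 41.7) and 76.1% of cKO cells (67.0 to 83.8). In the same thinned cells, Ifit1 had a UMI in 4.98% and 24.8%, against 1.07% and 3.54% of oligodendrocytes thinned alike. Before thinning, Ifit1 had a UMI in 32 of 258 and 56 of 114 ependymal cells. Median depths before thinning were 6769 and 7909 UMIs in oligodendrocytes.

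**Figure D2:**
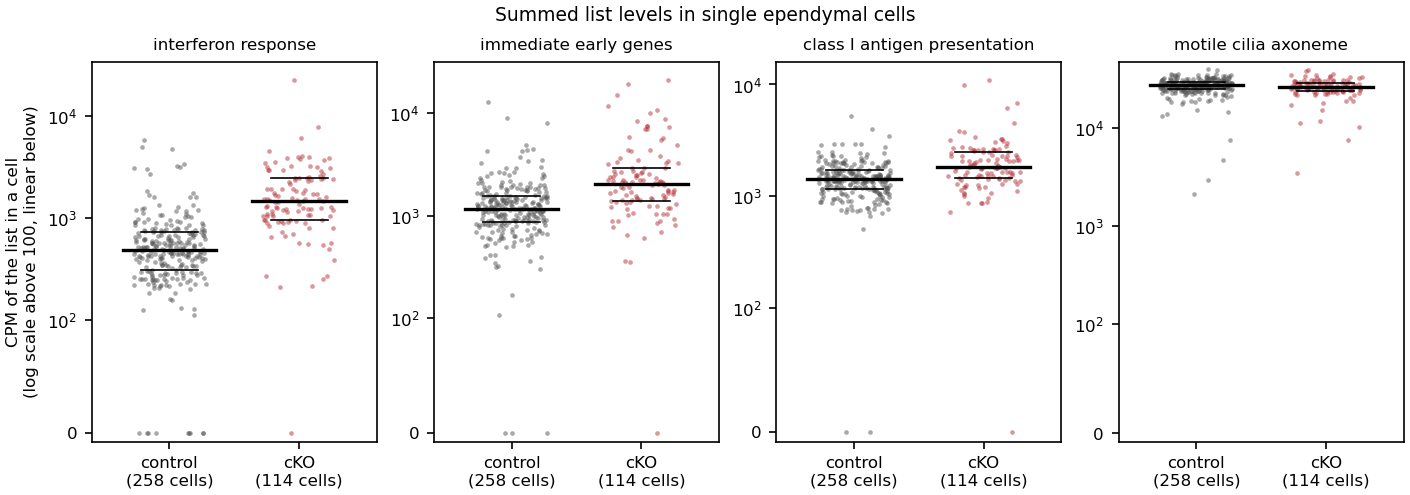
Summed level of 4 gene lists in each ependymal cell, in CPM of that cell (log scale above 100, linear below), by library; thick bars are medians and thin bars quartiles. The interferon response median is 483 CPM in control and 1460 CPM in cKO cells, while the axoneme medians are 27327 and 26146 CPM.

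Barcodes with 1 to 100 UMIs, present only in the unfiltered cKO library, were read as a measure of free RNA. Whether they hold only free RNA of that library was not tested. These barcodes, with 2.70 UMIs on average, had 2210 CPM of the interferon response list, near the 2319 CPM of cKO ependymal cells. In those barcodes, haemoglobin and other red cell genes had 21682 CPM and Ttr 1569 CPM, although the cKO library held 2 choroid plexus epithelial cells. In cKO ependymal cells red cell genes and Ttr were at 49.3 and 1.56 CPM, that is 0.227% and 0.0998% of the barcodes' level. Markers of some other classes stood nearer to the barcodes. Endothelial markers had 836 CPM in cKO ependymal cells against 6268 CPM in the barcodes. Oligodendrocyte markers had 527 against 6254 CPM, and microglia markers 361 against 5889 CPM. How much of any of these came from free RNA was not tested. The control file holds no barcode under 500 UMIs, so the same values are not to be had there.

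The other cell classes of the same libraries also had higher interferon lists. The median log2 ratio was 1.68 in astrocytes, 1.37 in oligodendrocytes, 1.20 in microglia and 0.72 in endothelial cells, each over its own measured genes. These comparisons share their 2 hosts, and the differences between classes were not tested. Ifit1 had 98.7 and 245 CPM in endothelial cells, and 11.9 and 73.6 CPM in astrocytes. Of 5 measured endothelial markers, 4 were themselves higher in cKO ependymal cells, where 1.82% of all measured genes were. Cldn5 had 25.1 and 44.6 CPM, and Ly6c1 26.1 and 51.2 CPM. In the cells with no choroid plexus marker these ratios were instead -2.56 and -3.09. In the 169 control and 62 cKO cells that had no UMI of P2ry12, Mog, Cldn5 or Dcx, the interferon median was 2.24. That subset was chosen after seeing the data and does not limit the other endothelial markers. The part of endothelial RNA in the interferon difference was not tested.

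Class I antigen presentation, a further target of interferons, was partly higher. Of 11 measured genes, 5 were higher and 0 lower, with a median of 0.57. Over all 7200 measured genes, 1.82% were higher and 0.944% lower. H2-K1, a classical heavy chain, had 148 and 372 CPM (1.34), and H2-D1 80.0 and 245 CPM (1.62); these 2 genes are similar in sequence. B2m, the shared light chain, had 50.6 and 180 CPM (1.83), and the non-classical H2-T23 7.80 and 52.0 CPM (2.74). The cKO cell with most UMIs of each gene held 215 of 952 for H2-K1, 104 of 627 for H2-D1 and 125 of 459 for B2m. For H2-T23 it held 9 of 133. Per cell, the class I list had a median of 1424 CPM in control and 1816 CPM in cKO cells. H2-K1 had a UMI in 44.8% of control and 73.4% of cKO cells at 5000 UMIs, against 22.7% and 21.9% of oligodendrocytes. The class I median was 0.58 in astrocytes, 0.57 in microglia, 0.42 in oligodendrocytes and 0.32 in endothelial cells of the same 2 hosts. Tapbp, Calr, Pdia3 and Canx, which load and fold the complex, lay between -0.13 and 0.12. Of 8 class II genes only Ctss, a lysosomal protease also of microglia, was measured, at -0.38, and the list summed to 76.2 and 69.2 CPM. In the complement list, C4b had 11.8 and 73.9 CPM (2.65; C4a is a near-identical copy), and C3, the central component, 63.5 and 101 CPM (0.66), while C1qa, a microglial product, had 78.6 and 50.5 CPM (-0.64).

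**Figure D3:**
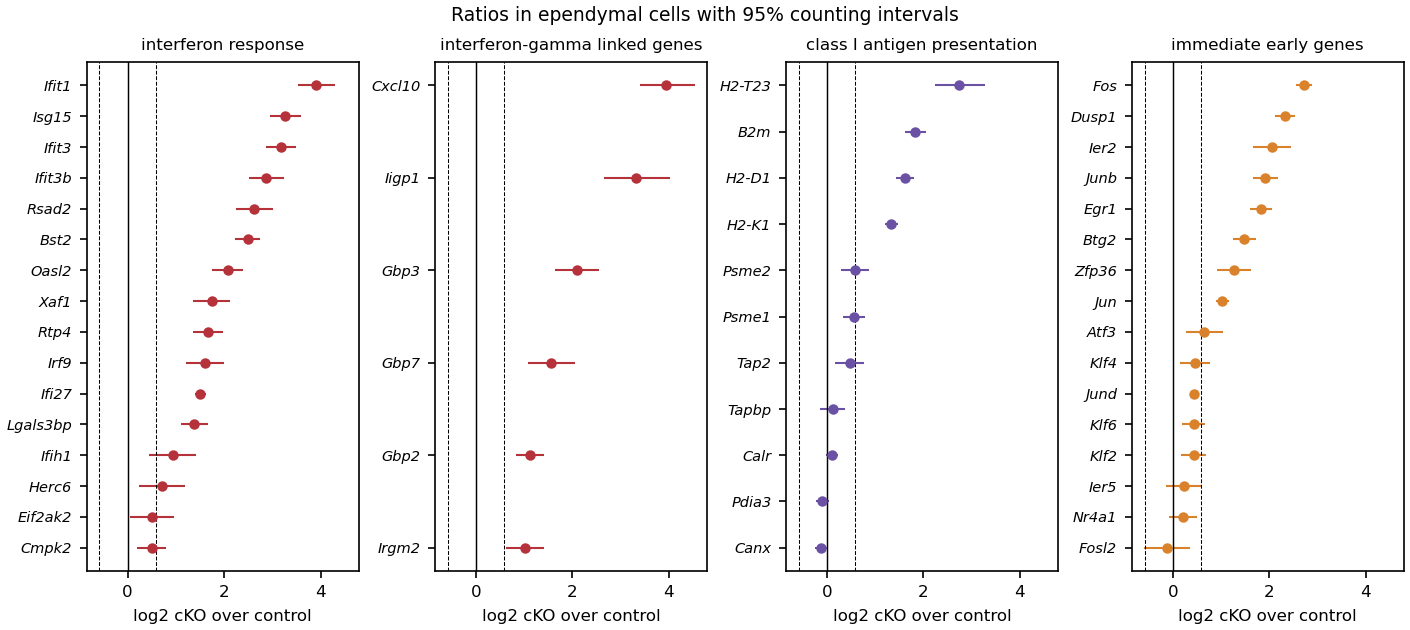
Log2 ratio of cKO over control with exact 95% counting intervals for measured members of 4 lists (1 interferon response gene is not drawn) in ependymal cells; solid line, equality; dashed lines, 1.5-fold. The plot places 14 of the 16 interferon response genes drawn and 6 of 6 interferon-gamma linked genes past the right dashed line, from 0.72 for Herc6 to 3.94 for Cxcl10, with the folding genes Calr, Pdia3 and Canx near the solid line.

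Promoters with GAAANNGAAA on either strand were counted for 14 of 29 interferon response genes with an entry and 11 of 14 interferon-gamma linked genes. Over all 27025 genes 3.99% had it, and over the measured ones 3.59%. It was present for 0 of 69 axoneme genes and 1 of 18 immediate early genes. Of 95 genes called higher that have an entry, 17 (17.9%) held it, and of 51 called lower, 1. The windows printed above, of genes chosen for holding a match, show 2 separate matches each for Ifit1 and Ifit3. That of Isg15 shows overlapping matches, and that of Cxcl10 a single match.

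Immediate early genes, which cells switch on rapidly after a stimulus, also held many higher members. Of 16 measured, 9 were higher and 0 lower, where 1.82% of all measured genes were higher and 0.944% lower. The median of the list was 0.84 against 0.01 for all genes. Fos (chr12:85473890-85477273) had 356 and 1088 UMIs, or 64.6 CPM (58.1 to 71.7) and 426 CPM (401 to 452), a log2 ratio of 2.72 (2.55 to 2.90). Dusp1, a MAP kinase phosphatase, had 54.1 and 271 CPM (2.33), Junb 37.2 and 141 CPM (1.92), and Egr1 45.6 and 162 CPM (1.83). Ier2 had 14.9 and 61.8 CPM (2.05). Nr4a1 had 51.9 and 60.2 CPM (0.21), and Fosl2 23.2 and 21.5 CPM (-0.11).

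These genes were seen in more of the cKO cells. Fos had a UMI in 10.8% of control and 50.5% of cKO cells at 5000 UMIs, against 6.19% and 4.60% of oligodendrocytes; before thinning it was 95 of 258 and 88 of 114 cells. Per cell, the list had a median of 1171 CPM (quartiles 856 and 1537) in the control and 2048 CPM (1384 and 2908) in the cKO. The list's median ratio was 0.21 in astrocytes, 0.13 in oligodendrocytes, 0.30 in microglia and -0.23 in endothelial cells. In the latter 3 of 18 measured members were higher and 1 lower, where 0.964% of all measured genes were higher and 1.78% lower. Fos itself had 40.3 and 35.7 CPM in astrocytes, a ratio of -0.18 (-0.36 to 0.01), and 292 and 462 CPM in microglia, 0.66 (0.59 to 0.74). In the cKO barcodes with 1 to 100 UMIs the list had 4030 CPM, against 2869 CPM in cKO and 1408 CPM in control ependymal cells. The part of free RNA in the difference was not tested.

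**Figure D4:**
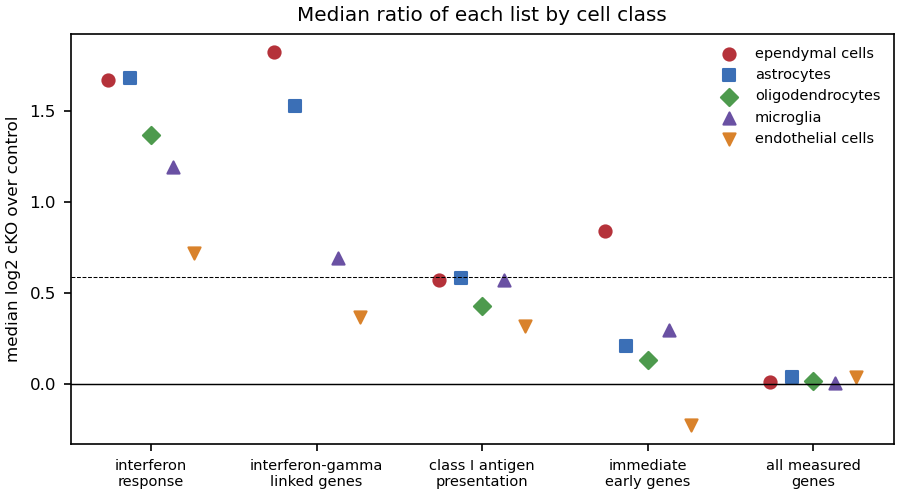
Median log2 ratio of cKO over control for 4 lists and for all measured genes, in ependymal cells and 4 other classes; dashed line, 1.5-fold; no oligodendrocyte point for interferon-gamma linked genes, of which none was measured. The interferon response medians run from 0.72 in endothelial cells to 1.68 in astrocytes, and for immediate early genes ependymal cells lie at 0.84 and the other classes between -0.23 and 0.30.

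Secreted and identity genes gave a few further differences. Ccn1, a matricellular protein and early response gene, had 110 and 325 CPM (1.56), and Ccn2 10.2 and 34.8 CPM (1.78). Among 18 measured genes of neural stem and glial identity, 4 were higher, where 1.82% of all 7200 measured genes were. Of these 4, Hes1 had 63.5 and 113 CPM (0.83) and Id3 52.8 and 88.4 CPM (0.74). Gfap had 41.0 and 66.9 CPM (0.71) and Meis2 157 and 240 CPM (0.61). After thinning each cell to 1000 UMIs the ratio of Gfap was -0.82. Sox9, a glial lineage factor, was even at 1132 and 1163 CPM, as was Sox2 at 467 and 541 CPM. In transport, Slc6a6, the taurine carrier, was the 1 of 16 genes that was higher (41.7 and 73.2 CPM, 0.81). At the share of 1.82% over all measured genes, a list of 16 could hold 1. Slc2a1, the GLUT1 glucose carrier, had 505 and 338 CPM, a ratio of -0.58 (-0.69 to -0.47) that lay just under 1.5-fold. Aqp4, the water channel of ependyma and astrocytes, was even at 570 and 548 CPM.

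Stress and housekeeping lists held few called genes. None of 14 metallothionein and oxidative stress genes, 28 ribosomal proteins, 31 oxidative phosphorylation genes or 10 p53 targets was higher or lower. Over all 7200 measured genes 1.82% were higher and 0.944% lower, so lists of these sizes could hold none. Mt3, which encodes a zinc-binding metallothionein, had 9332 and 13053 CPM (0.48). Of 18 heat shock genes, Hspa1b (56.3 and 93.5 CPM, 0.73) and its near copy Hspa1a (0.59) were higher and Cryab (259 and 172 CPM, -0.59) was lower. In the cells with no choroid plexus marker, Hspa1a had -0.66. Cryab is abundant in oligodendrocytes, and with at most 5% mitochondrial UMIs its ratio was 0.12. Hsp90aa1 had 6918 and 5164 CPM (-0.42). The 3 measured sex-linked genes were neither higher nor lower, and at the shares above a list of 3 could hold none.

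The genes lowest in the cKO were of another kind. Ttr, the thyroid hormone carrier made by the choroid plexus, had 2626 UMIs in control and 4 in cKO ependymal cells, or 477 and 1.56 CPM. The control library held 292 choroid plexus epithelial cells and the cKO library 2. Ttr was likewise at 1198, 879 and 1472 CPM in control astrocytes, oligodendrocytes and microglia and at most 1.73 CPM in those of the cKO. Cx3cr1, the microglial receptor that carries the CreER insertion, had 43.0 and 17.6 CPM (-1.29), with 61 and 11 cells positive, and 3551 and 1682 CPM in microglia. With each cell weighted equally, by thinning to 1000 UMIs or by the mean of CPM per cell, its ratio was 0.30 or 0.080.

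Nr2f2 and Nr2f1, orphan nuclear receptors that pattern the forebrain (COUP-TFII and COUP-TFI), came next. Nr2f1 (chr13:78188973-78199757) had 1111 and 153 UMIs, or 202 CPM (190 to 214) and 59.9 CPM (50.7 to 70.1), a log2 ratio of -1.75 (-2.01 to -1.51). Nr2f2 (chr7:70351944-70366735) had 74.2 and 14.9 CPM, a ratio of -2.32 (-2.84 to -1.84). Nr2f1 had a UMI in 39.4% of control and 16.5% of cKO cells at 5000 UMIs; unthinned, it was 150 of 258 and 28 of 114. In astrocytes the ratio was -0.42 (-0.54 to -0.30) for Nr2f1 and -0.41 (-0.61 to -0.20) for Nr2f2. In endothelial cells Nr2f2 was even, at 87.7 and 90.8 CPM. Other genes among the 12 lowest were Cdh26 (37.9 and 16.4 CPM, with a ratio of 0.92 after thinning each cell to 1000 UMIs), Lars2 (909 and 428 CPM), Cckbr (a ratio of -0.93) and Col6a5 (223 and 125 CPM).

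Regional transcription factors varied among ependymal cells within each library. Splitting cells by a Nr2f1 UMI, a choice made after its values were seen, gave 150 control cells with and 108 without, and 28 cKO cells with and 86 without. Cells with a Nr2f1 UMI were deeper, with median UMI counts of 18628 against 12848 in the control and 20043.5 against 14369.5 in the cKO. In the control, Nr2f2 had 104 CPM (93.8 to 115) in cells with a Nr2f1 UMI and 17.0 CPM (11.6 to 23.9) in those without, and Col6a5 260 and 153 CPM. Zic4 ran the other way, at 60.2 CPM (52.5 to 68.7) with and 120 CPM (105 to 137) without, as did Otx2 at 61.8 and 120 CPM. In the cKO, Zic4 had 5.31 CPM (1.45 to 13.6) with and 83.8 CPM (70.9 to 98.2) without, and Zic1 had a UMI in 2 of 28 and 50 of 86 cells. Six3 had 135 CPM (123 to 148) with and 103 CPM (89.3 to 119) without among control cells. Among cKO cells it had 109 CPM (86.5 to 135) with and 119 CPM (104 to 136) without. Meis2 had 132 CPM with and 203 CPM without among control cells, and 244 and 238 CPM among cKO cells. The list of regional factors does not hold Nr2f1 and Nr2f2, which were lower. Of its 14 measured genes, Emx1 (15.4 and 27.0 CPM, 0.81) and Meis2 were higher in the cKO and 0 were lower. Over all 7200 measured genes 1.82% were higher and 0.944% lower, so a list of 14 could hold none lower. Where in the ventricular wall the cells of each host lay is not in the labels, so position and genotype cannot be told apart.

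**Figure D5:**
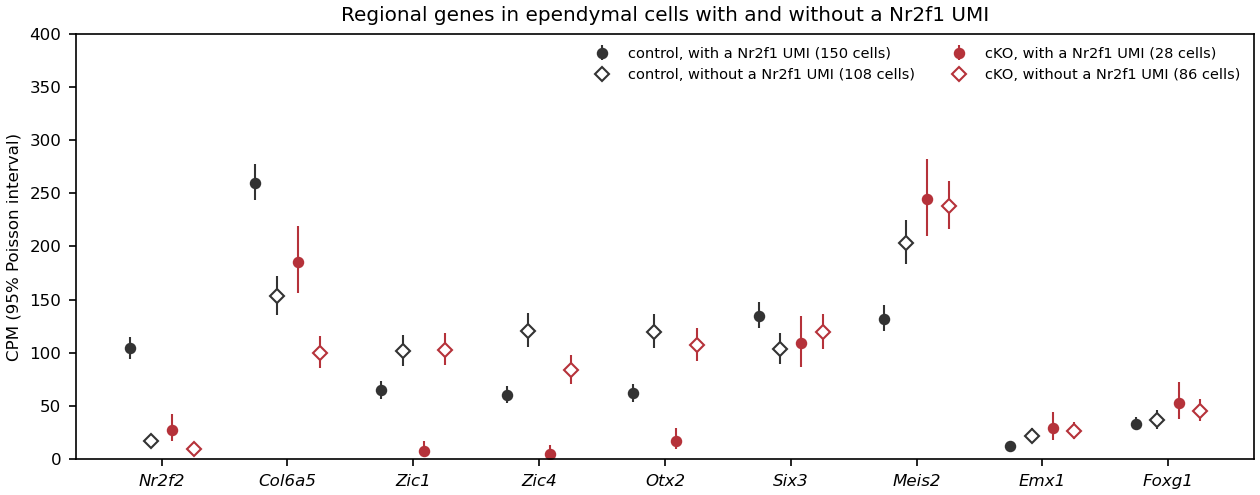
CPM with 95% Poisson intervals for 9 genes in ependymal cells with (filled circles) and without (open diamonds) a Nr2f1 UMI, control in black and cKO in red. Nr2f2 and Col6a5 are higher in cells with a Nr2f1 UMI in both libraries, and Zic1, Zic4 and Otx2 are higher in cells without one.

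The interferon and immediate early differences were present on both sides of that split. In cells without a Nr2f1 UMI, the interferon response list had a per-cell median of 451 CPM in control and 1428 CPM in cKO cells. In cells with one it had 504 and 1638 CPM. Summed over cells, the list had 590 and 1747 CPM without and 654 and 3689 CPM with one. Whether the size of the difference depends on the side was not tested. Immediate early genes had medians of 999 and 1956 CPM without and 1283 and 2165 CPM with a Nr2f1 UMI. The axoneme sum was 27880 and 26119 CPM without and 27379 and 24318 CPM with one.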

How the data were processed

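Single-cell 3′ RNA-seq of 1 control and 1 cKO library was analysed from the UMI counts per gene and barcode deposited by the authors, which came from Cell Ranger 7.1.0 (per the file headers) on mm10 (per the submitters' processing notes). Ependymal members and gene lists were chosen with earlier results of these data known. UMIs of the ependymal cells of each library were summed and scaled to CPM. Ratios are log2 cKO over control with exact conditional Clopper-Pearson 95% intervals, and levels have Poisson intervals. Higher or lower means at least 1.5-fold with an interval that excludes equality, among genes with a mean of at least 20 CPM. No test was run, since each genotype has 1 library.

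Shares of cells with a UMI used cells thinned to 5000 UMIs. Comparison classes needed 4 of their own markers (choroid plexus 3). Doublets were called with Scrublet in scanpy 1.11.5. Sums and intervals used scipy 1.17.1, pandas 2.3.3 and numpy 2.4.6 under Python 3.11.15, and the interval code was tested on simulated data. Named genes were Plxnb2, the rule markers, the 12 highest and 12 lowest ratios with at least 30 CPM in 1 library, up to 6 members of each list with the largest ratios and members whose role is described, and the 15 genes with the highest ratio over all other kept cells. Depth per library was 64756949 and 63785513 UMIs over all barcodes, and 5509672 and 2556233 in ependymal cells. Promoters came from RefSeq (GRCm38.p6) and gene positions from GENCODE vM21. Alternatives changed the cell limits, the scaling and the call thresholds. One measured gene of the interferon response list counts in its totals and is not reported here by name.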

Additional observations from a re-analysis of the deposited data

Results flagged for a closer look

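The immediate early gene list lay on opposite sides of equality in 2 cell classes of the same libraries. Its median log2 ratio of cKO over control was 0.84 in ependymal cells, with 9 of 16 measured genes higher and 0 lower. Of 7200 measured genes there, 1.82% were higher and 0.944% lower. In endothelial cells the list's median was -0.23, with 3 of 18 higher and 1 lower. Of 6533 measured genes there, 0.964% were higher and 1.78% lower. With 1 library per genotype the difference between the classes was not tested. Fos was higher in both classes, at 2.72 in ependymal and 0.78 in endothelial cells.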

How the results depend on the processing

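No paired analysis was possible because each genotype has 1 library. The values were recomputed under 16 settings, of which 14 were chosen at the outset and 2 (no UMI of the 4 other-class markers, and leaving out the cell with most interferon response UMIs in each library) after seeing the data. For 229 named genes, 2447 of 2967 values stayed within the main counting interval and 499 moved outside it. A further 21, all of genes called higher or lower in the main values, changed sign. A change of sign in an uncalled gene was counted only as within or outside the interval. Which genes were called depended on the setting. Of the 131 higher and 68 lower main calls, 29 and 10 were called again with each cell thinned to 1000 UMIs before summing. With none of the 5 choroid plexus markers it was 38 and 17, and with the mean of CPM per cell 95 and 49. Most recurred without Scrublet doublet calls (117 and 58) and with at least 5 of the 7 markers (125 and 64).

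The interferon response median stayed above 0 in every setting that gave one, from 0.99 to 2.49. The axoneme median stayed below 0, between -0.269 and -0.0553. With at most 5% mitochondrial UMIs the control share was 2.65%, 160 genes were lower and Cryab had a ratio of 0.12. With at least 3 markers the axoneme median was -0.163, and with markers read after thinning it was -0.0681. With none of the 5 choroid plexus markers, which leaves 54 and 17 cells, the shares were 0.669% and 0.315%, 386 genes were higher and 291 lower, and the medians were 0.99 for interferon and -0.269 for axoneme genes. Plxnb2 then had -0.31. Ratios of called genes that changed sign there were Rsad2 -0.24, Ly6c1 -3.09, Cldn5 -2.56, Itm2a -1.32, Flt1 -3.17, Col1a2 -0.35, Gbp7 -2.45, Irgm2 -1.24, B2m -0.60, Psme2 -0.59, Cxcl12 -4.06, Junb -0.86 and Hspa1a -0.66.

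With each cell thinned to 1000 UMIs before summing, Cx3cr1 had 0.30, Cdh26 0.92, Gfap -0.82, Ly6c1 -0.24, Flt1 -0.56 and Dner 0.86. With the mean of CPM per cell, 249 genes were higher and 122 lower, the axoneme median was -0.0553 and Cx3cr1 had 0.080. A minimum of 50 CPM gave 48 higher and 19 lower and one of 10 CPM gave 293 and 168, over fewer and more genes. A 2-fold limit gave 41 and 9. With no UMI of the 4 other-class markers the shares were 2.09% and 1.15% and 186 genes were lower. Apart from fewer cells or genes, the cause was not tested. Depth limits genes under 20 CPM, and the smaller of the 2 libraries' UMI counts limits each ratio.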
